A study of Mus musculus with 27 samples.

Results

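The alcohol and aldehyde dehydrogenases described here are 10 genes, taken by symbol from the gene name column of an expression table of 21823 genes: Adh1, Adh4, Adh5, Aldh2, Aldh1b1, Aldh1a1, Aldh1a7, Aldh8a1, Aldh1l1 and Aldh3a2. All 10 passed the filter on low values, which left 12952 genes for testing. The RNA came from liver lobules of virgin, non-pregnant (NP) and pregnant female mice, labelled as strain C57BL/6 and named C57BL/6N in the study's methods, all wild type (WT), the pregnant ones at day 8 (dpc8) or day 16 (dpc16) after coitum. Areas from zones 1, 2 and 3 of the lobule were cut from thin sections with a laser under the microscope, and total RNA was sequenced after removal of ribosomal RNA. Each stage and zone had 3 libraries, which gave 9 groups and 27 libraries, and the values are FPKM (fragments per kilobase of transcript, scaled to the number of mapped fragments). The labels number the libraries of a group but do not say whether they came from separate mice, so p-values measure the spread between these samples.

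Alcohol dehydrogenases oxidise alcohols to aldehydes, and aldehyde dehydrogenases oxidise aldehydes to acids, both with NAD or NADP as the electron acceptor. In hepatocytes this pair of steps clears ethanol by way of acetaldehyde, converts retinol to retinaldehyde and retinoic acid, and removes formaldehyde and fatty aldehydes. Blood flows through the lobule from the portal vein to the central vein, and hepatocytes along this path are known to differ in their enzymes. The zone labels fitted markers of that axis. Of 13 periportal hepatocyte genes, 9, 8 and 12 were higher in zone 1 than in zone 3 at NP, dpc8 and dpc16, and of 13 pericentral genes 12, 13 and 13 were lower (limma, adjusted p under 0.05).

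Aldh1a1 and Aldh1a7, neighbours on chromosome 19 that face each other on opposite strands, are the closest pair of the 10 in sequence and had different patterns of expression, so their sequences are shown first. The windows are from RefSeq on GRCm38.p6 and end 11 bases before the annotated start, which for Aldh1a1 is the RefSeq start that lies inside the gene. Aldh1a1 is chr19:20601718-20601957 on the plus strand, Aldh1a7 is chr19:20727567-20727806 on the minus strand, and the starts lie 125588 bases apart. Both are written from 5′ to 3′ along their gene, and the capitals mark the longest run without a difference, 65 bases from -94 to -30.
Aldh1a1: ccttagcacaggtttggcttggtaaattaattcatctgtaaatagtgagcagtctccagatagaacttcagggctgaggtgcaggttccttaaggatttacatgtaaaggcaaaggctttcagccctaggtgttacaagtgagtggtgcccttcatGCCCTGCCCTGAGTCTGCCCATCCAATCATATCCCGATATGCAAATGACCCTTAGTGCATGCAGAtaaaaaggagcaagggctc
Aldh1a7: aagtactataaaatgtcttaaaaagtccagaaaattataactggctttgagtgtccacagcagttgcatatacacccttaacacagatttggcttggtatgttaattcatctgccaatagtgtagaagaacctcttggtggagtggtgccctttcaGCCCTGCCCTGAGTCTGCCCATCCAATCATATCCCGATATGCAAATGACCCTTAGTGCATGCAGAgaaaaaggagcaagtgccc
Over the 98 aligned bases from -110 to -13, 93 were identical (94.9%). The shared run holds the letters CCAAT at -72 to -68 on the gene's strand, and Aldh1a7 has them also at -137 to -133. These letters, searched on both strands, occur in the 250 upstream bases of 33.8% of all 32851 RefSeq promoters, and a match is a description, not a binding site.

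The coding sequences of the same pair are 1503 bases each and differ at 126 positions. Of 1418 windows as long as a sequence read (86 bases), 25 held no difference, the median was 6 and the most was 19. A window with the median number of differences is shown here, coding bases 1028 to 1113 in the GENCODE annotation on mm10, with the differing bases in capitals. In Aldh1a1 it spans exons 12 and 13 (chr19:20630843-20634426, plus strand) and in Aldh1a7 exons 9 and 10 (chr19:20702298-20708157, minus strand).
Aldh1a1: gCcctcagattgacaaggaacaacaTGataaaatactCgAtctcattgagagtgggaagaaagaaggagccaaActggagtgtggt
Aldh1a7: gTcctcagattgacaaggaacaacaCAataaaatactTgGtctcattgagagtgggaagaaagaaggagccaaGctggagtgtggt
Among other pairs, Adh1, Adh4 and Adh5 shared 66.3% to 68.8% of aligned coding bases, and Aldh2 and Aldh1b1 shared 71.8%. No window of 86 bases in the transcripts of Adh4, Adh5, Aldh1b1, Aldh3a2 or Aldh8a1 occurred in another gene.

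On mm10 the 3 alcohol dehydrogenase genes lie in 1 cluster on chromosome 3, Adh1 at 138260991 to 138290698, Adh4 at 138415466 to 138430892 and Adh5 at 138443093 to 138455499, all on the plus strand. The aldehyde dehydrogenase genes are spread over 6 chromosomes. Aldh1b1 is at chr4:45799022-45804604 (plus), Aldh2 at chr5:121566027-121593824 (minus) and Aldh1l1 at chr6:90486427-90600203 (plus). Aldh8a1 is at chr10:21377291-21396585 (plus), Aldh3a2 at chr11:61223417-61267464 (minus), Aldh1a1 at chr19:20492715-20643465 (plus) and Aldh1a7 at chr19:20692953-20727562 (minus). Genes on the opposite strand overlap exons of Adh1, Aldh2 and Aldh1l1, and 0.498%, 1.19% and 6.65% of the 86-base windows of these transcripts lie in that overlap. The counting is not stated to use strand, so reads from these bases cannot be told apart.

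The table gives no read counts. The steps between low FPKM values corresponded to 7.522 to 33.46 M reads per library (median 16.43), so that 1 read per kilobase was worth 0.0299 to 0.133 FPKM. 6 of the 27 libraries stood apart. In NP mice these were replicate 1 of zone 1 and replicate 2 of zone 3. At dpc8 they were replicate 1 of zone 1 and replicate 2 of zone 2, and at dpc16 they were replicate 3 of both zone 2 and zone 3. Although labelled female, they had 7.924 to 23.18 FPKM of Y-linked genes in sum, against at most 2.973 in the other 21. The mean log2(FPKM + 1) of 12 connective tissue and smooth muscle genes was 4.7 to 6.098 in the 6 and 1.335 to 4.039 in the others. The summed FPKM of the 10 dehydrogenases was 1877 to 5075 in the 6 and 3554 to 7470 in the others, and the mean of 5 general hepatocyte genes was 10.16 to 11.06 against 10.91 to 12.25. The part of these libraries in the results was not tested, and values without them stand beside the called results of the 10 genes. In such bulk samples, fewer hepatocytes and less RNA per hepatocyte cannot be told apart.

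Adh1 and Aldh2, the class I alcohol dehydrogenase and the mitochondrial acetaldehyde dehydrogenase that together clear ethanol, made up at least 49.94% of the signal in every library. Their joint share of the summed FPKM of the 10 genes was 64.78% to 71.6% in NP libraries, 60.75% to 66.79% at dpc8 and 49.94% to 64.13% at dpc16. Adh1 ranged from 712 to 2660 FPKM (median 1524) and Aldh2 from 447 to 2547 (median 1248). Medians over all libraries were 408 FPKM for Aldh1l1, 273 for Aldh1a1, 246 for Adh5, 205 for Aldh3a2, 175 for Aldh8a1, 91.3 for Aldh1a7, 75.1 for Adh4 and 47.6 for Aldh1b1. Dpc16 zone 2 replicate 3, which stood apart, had the lowest value of the 27 for Adh1, Adh5, Aldh2, Aldh8a1 and Aldh1l1.

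**Figure D1:**
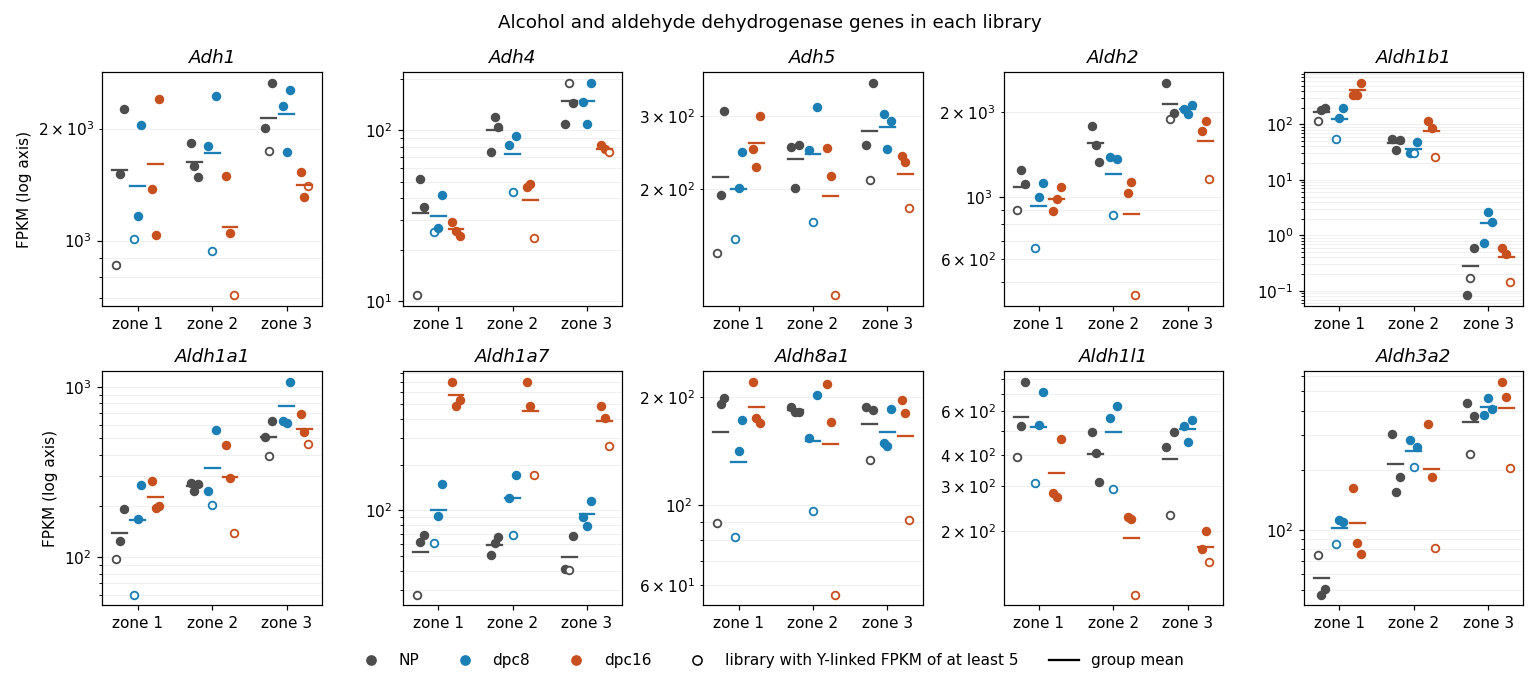
FPKM of each of the 10 genes (log axis, 1 panel per gene) in each library, by zone on the horizontal axis and by stage in colour. Lines are group means of 3 libraries and open circles are the 6 libraries with at least 5 FPKM of Y-linked genes. Aldh1b1 falls from zone 1 to zone 3, with zone 3 libraries at 0.0829 to 2.6 FPKM, and the dpc16 libraries of Aldh1a7 (171 to 702 FPKM) lie above those of NP (27.8 to 68.5 FPKM).

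**Figure D2:**
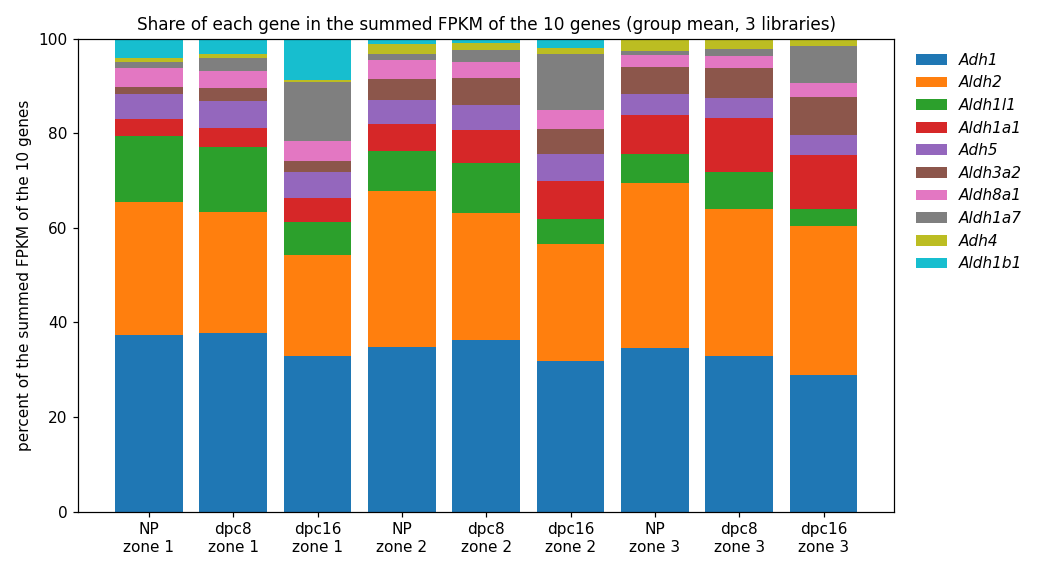
Mean percent of the summed FPKM of the 10 genes taken by each gene in the 9 groups (stacked bars, 3 libraries per group). Aldh1a7 takes 0.797% to 1.29% in the NP groups and 7.63% to 12.5% in the dpc16 groups.

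The first comparison asked how each gene differed between zones 1 and 3 within a stage. Aldh1b1 was the 1 gene higher in zone 1, at all 3 stages, and Aldh3a2 was lower in zone 1 at all 3. Adh4 and Aldh1a1 were lower in zone 1 at NP and dpc8. In all, 4 genes passed the test at NP, 4 at dpc8 and 2 at dpc16 (limma on log2(FPKM + 1), Benjamini-Hochberg adjusted p under 0.05), where 1.34%, 1.61% and 1.55% of all genes tested were called. At all 3 stages, 0.286% of all genes were called higher in zone 1 and 0.479% lower. The median log2 fold change over the 10 genes, zone 1 minus zone 3, was -0.48, -0.60 and 0.17, against 0.03, 0.08 and -0.02 over all genes. Fold changes below are given on the log2(FPKM + 1) scale with their standard error (SE).

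Aldh1b1, a mitochondrial aldehyde dehydrogenase closely related to Aldh2, was measured in NP mice at 115, 180 and 199 FPKM in zone 1, at 53.6, 34.6 and 51.7 in zone 2 and at 0.0829, 0.17 and 0.594 in zone 3. At dpc8 it was at 55.2, 129 and 195 FPKM in zone 1, 30.2, 30.9 and 47.6 in zone 2 and 0.716, 2.6 and 1.75 in zone 3. At dpc16 it was at 342, 332 and 566 FPKM in zone 1, 115, 84.1 and 26.2 in zone 2 and 0.6, 0.468 and 0.146 in zone 3. Zones 1, 2 and 3 did not overlap at any stage, and the zone 3 values rested on an estimated 2.02 to 96.1 reads per library. Zone 1 exceeded zone 3 by 7.00 (SE 0.45, limma, adjusted p = 2.03e-09) at NP, 5.45 (SE 0.45, adjusted p = 5.39e-08) at dpc8 and 8.17 (SE 0.45, adjusted p = 1.74e-10) at dpc16. The differences were 7.18, 5.95 and 8.03 when the 6 libraries that stood apart were left out. Since zone 3 lies near the pseudocount of 1, these differences understate the ratio of FPKM, and with a pseudocount of 0.1 the highest was 9.76.

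Aldh1b1 was also the 1 gene called between neighbouring zones in the main fit. With the replicate block, Aldh3a2 was called too in zone 2 against zone 3 at dpc16 (-1.12, limma, adjusted p = 0.022, against 0.771 without it). Zone 2 exceeded zone 3 by 5.21 (adjusted p = 6.37e-07) at NP, 3.82 (adjusted p = 4.08e-05) at dpc8 and 5.53 (adjusted p = 4.05e-07) at dpc16 (limma), where 0.401%, 0.347% and 0.517% of all genes were called. Leaving out the 6 libraries gave 5.15, 3.92 and 6.02, and a fit of the compared groups alone lost the call at dpc16 (adjusted p from 2.03e-11 to 0.0589 over 9 alternatives). Zone 1 exceeded zone 2 at dpc16 by 2.64 (SE 0.45, limma, adjusted p = 0.0107), where 0.139% of genes were called. In the main fit no gene of the 10 was called at NP or dpc8, where 0.154% and 0.124% were called and 4 of the 10 at each stage had an unadjusted p under 0.05, as did 5.34% and 3.4% of all genes. With the replicate block 2 and 1 of the 10 were called at NP and dpc8, against 0.448% and 0.201% of all genes. Without the 6 libraries the counts were also 2 and 1, against 0.22% and 0.228%. The call at dpc16 was lost without zone 1 replicate 3 (2.39) or zone 2 replicate 3 (2.02), the latter being among the 6 libraries (2.02 with an adjusted p of 0.0101 without all 6), with the smaller pseudocount and with the compared groups alone, and its adjusted p ran from 0.000725 to 0.796 over the 9 alternatives.

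Aldh3a2, the fatty aldehyde dehydrogenase of the endoplasmic reticulum, had the opposite order. NP values were 75.3, 47.4 and 50.6 FPKM in zone 1, 303, 156 and 185 in zone 2 and 434, 242 and 376 in zone 3. At dpc8 they were 85.1, 113 and 110 in zone 1, 284, 207 and 261 in zone 2 and 382, 461 and 409 in zone 3. At dpc16 they were 164, 85.8 and 76.2 in zone 1, 341, 185 and 81.2 in zone 2 and 558, 465 and 205 in zone 3. Zones 1 and 3 did not overlap at any stage, while zone 2 overlapped zone 3 at NP and both other zones at dpc16. Zone 1 minus zone 3 was -2.57 (SE 0.43, limma, adjusted p = 0.000967), -2.02 (SE 0.43, adjusted p = 0.0115) and -1.87 (SE 0.43, adjusted p = 0.0193) at NP, dpc8 and dpc16, and -3.02, -1.89 and -2.31 without the 6 libraries. At dpc8 the call was lost without zone 1 replicate 1 (-1.89), zone 3 replicate 2 (-1.95) or zone 3 replicate 3 (-2.03). At dpc16 it was lost without zone 1 replicate 2 (-1.74) or 3 (-1.66) or zone 3 replicate 1 (-1.58) or 2 (-1.72), and with the compared groups alone, the adjusted p running from 2.53e-05 to 0.16 over the 9 alternatives.

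Adh4, a class II alcohol dehydrogenase that also oxidises retinol, was at 10.8, 51.7 and 35.5 FPKM in NP zone 1, 75.2, 120 and 105 in zone 2 and 108, 191 and 145 in zone 3. At dpc8 it was at 25.4, 26.6 and 41.9 in zone 1, 82.4, 43.7 and 93.3 in zone 2 and 147, 109 and 190 in zone 3. At dpc16 it was at 29, 25.9 and 24 in zone 1, 46.3, 48.2 and 23.3 in zone 2 and 81.7, 77.7 and 75.1 in zone 3. Zone 3 lay above zone 1 in every library at each stage. Zone 1 minus zone 3 was -2.36 (SE 0.41, limma, adjusted p = 0.00163) at NP and -2.21 (SE 0.41, adjusted p = 0.00352) at dpc8, and -1.53 and -2.08 without the 6 libraries. At NP the call was lost with the compared groups alone, where the adjusted p ran from 4.7e-05 to 0.222 over the 9 alternatives. At dpc16 the difference of -1.54 (SE 0.41) had an adjusted p of 0.0687 (limma), which missed the threshold. A block on the replicate number, which assumes that equal numbers pair the zones, gave an adjusted p of 0.00256 (limma). The labels do not state this pairing. Without the 6 libraries the difference was -1.57 with an adjusted p of 0.00153. Over the 9 alternatives the call was also made with the compared groups alone, the FPKM sum, weights and the covariate.

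Aldh1a1, the cytosolic enzyme that oxidises retinaldehyde to retinoic acid, was at 96.9, 125 and 191 FPKM in NP zone 1, 273, 245 and 270 in zone 2 and 509, 393 and 629 in zone 3. At dpc8 it was at 60.2, 167 and 266 in zone 1, 245, 203 and 559 in zone 2 and 631, 610 and 1074 in zone 3. At dpc16 it was at 282, 195 and 201 in zone 1, 454, 292 and 138 in zone 2 and 691, 547 and 464 in zone 3. No zone 1 library reached a zone 3 library of the same stage. Zone 1 minus zone 3 was -1.91 (SE 0.47, limma, adjusted p = 0.0398) at NP and -2.41 (SE 0.47, adjusted p = 0.00527) at dpc8, and -1.86 and -1.82 without the 6 libraries. At NP the call rested on single libraries: removing zone 1 replicate 1 or 2 or any zone 3 replicate ended it (-2.09 to -1.69). It was also lost without the filter on low values and with the compared groups alone (adjusted p from 0.000609 to 0.075 over the 9 alternatives). At dpc8 it was lost without zone 1 replicate 1 (-1.82) or zone 3 replicate 3 (-2.15), and with the compared groups alone (adjusted p from 0.00017 to 0.0976). At dpc16 the difference was -1.33 (SE 0.47) with an adjusted p of 0.276 (limma). With the replicate block the adjusted p was 0.0287, and without the 6 libraries the difference was -1.46 with an adjusted p of 0.0231. The block called 4 of the 10 genes at dpc16 in place of 2, and 2.65% of all genes in place of 1.55%.

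Aldh2 was called at no stage, although its zones 1 and 3 did not overlap at any of them. It was at 899, 1248 and 1110 FPKM in NP zone 1 and 2547, 1888 and 1992 in NP zone 3, at 660, 996 and 1120 against 2057, 1969 and 2117 at dpc8, and at 890, 983 and 1086 against 1713, 1863 and 1153 at dpc16. Groups that did not overlap were found for 12.7%, 23.2% and 14.7% of all genes tested at these stages. The differences, zone 1 minus zone 3, were -0.98, -1.18 and -0.65 (SE 0.31, limma, adjusted p = 0.193, 0.0564 and 0.619). Without the 6 libraries they were -0.94, -0.95 and -0.86, and the adjusted p was 0.00336, 0.00116 and 0.00246. Their adjusted p missed the threshold in the main fit, which does not show that the zones were alike.

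Adh1, Adh5, Aldh1a7, Aldh8a1 and Aldh1l1 were not called between zones 1 and 3 at any stage. In zones 1, 2 and 3, Adh1 was at 1544 ± 703, 1631 ± 180 and 2138 ± 471 FPKM (mean ± SD, n = 3) at NP, 1406 ± 560, 1724 ± 756 and 2188 ± 412 at dpc8, and 1603 ± 709, 1084 ± 393 and 1412 ± 107 at dpc16. Adh5 was at 214 ± 85.4, 237 ± 30.3 and 276 ± 77.1 FPKM at NP, 200 ± 47.3, 244 ± 74.4 and 282 ± 28 at dpc8, and 259 ± 37.8, 193 ± 72.9 and 218 ± 32.7 at dpc16. For both genes every neighbour in the order of group means overlapped the next, although zones 1 and 3 did not overlap for Adh5 at dpc8. Zone 1 minus zone 3 for Adh1 was -0.56 at NP (95% interval -1.38 to 0.27) and -0.69 at dpc8 (-1.51 to 0.13). Adh5, the formaldehyde dehydrogenase that acts with glutathione, differed by -0.40 at NP (-1.06 to 0.26) and -0.52 at dpc8 (-1.17 to 0.14). Intervals for Aldh1a7 were -0.89 to 0.96 at NP and -0.92 to 0.94 at dpc8, and those for Aldh8a1 were -1.01 to 0.73 and -1.21 to 0.53. At dpc16 the intervals were -0.33 to 1.53 for Aldh1a7, whose zones 1 and 3 did not overlap at that stage, -0.53 to 1.21 for Aldh8a1, -0.73 to 0.92 for Adh1 and -0.41 to 0.91 for Adh5. Aldh8a1, an enzyme of the kynurenine pathway of tryptophan breakdown, had group means between 132 and 189 FPKM. Aldh1l1, which oxidises a formyl group carried by folate, was 0.57 higher in zone 1 at NP and 0.93 higher at dpc16 (SE 0.38 for both, limma, adjusted p = 0.832 and 0.432), and at dpc8 its interval was -0.83 to 0.72. Its zones 1 and 3 did not overlap at dpc16.

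**Figure D3:**
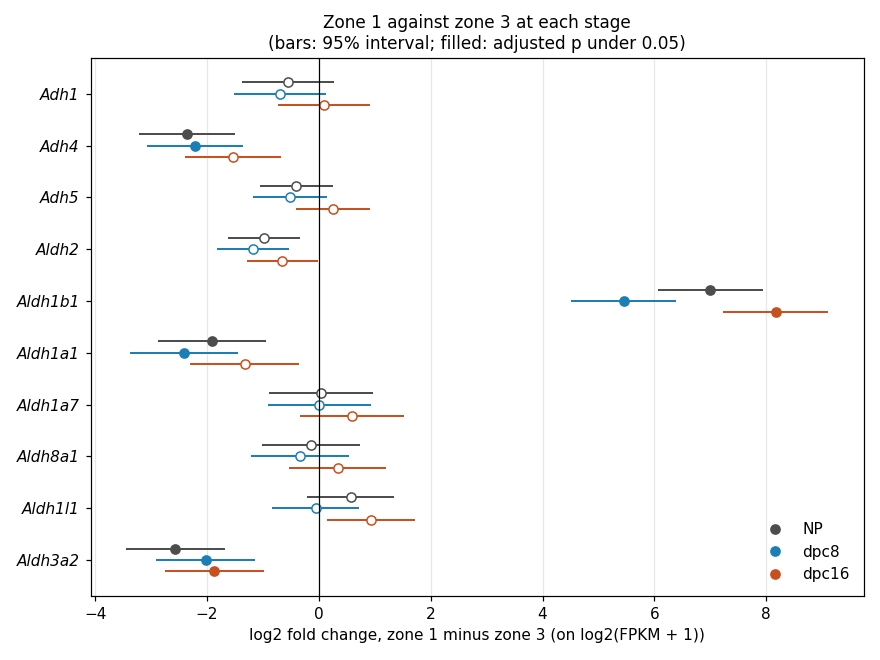
Log2 fold change of zone 1 minus zone 3, on log2(FPKM + 1), for the 10 genes at NP, dpc8 and dpc16, with 95% intervals from limma; filled points have an adjusted p under 0.05. Aldh1b1 lies at 5.45 to 8.17, and Aldh3a2, Adh4 and Aldh1a1 lie between -2.57 and -1.33.

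The next comparisons asked how each gene differed between stages within a zone. From NP to dpc8 none of the 10 genes was called in any zone or in the mean of the zones (limma), where 0.0309%, 0.00772%, 0.0154% and 0.108% of all genes were called. With an unadjusted p under 0.05 there were 0, 0 and 2 of the 10 in zones 1, 2 and 3 and 1 in the mean of the zones, against 3.13%, 5.06%, 2.74% and 6.11% of all genes. From NP to dpc16, 1 of the 10 was called in each zone, Aldh1a7 each time, where 1.37%, 2.66% and 1.32% of all genes were called. In all 3 zones at once, 0.363% of genes were called higher at dpc16 and 0.116% lower. The median log2 fold change of the 10 genes from NP to dpc16 was 0.32, -0.44 and -0.24 in zones 1, 2 and 3, against -0.05, 0.04 and 0.01 over all genes. Scaling each library to the same FPKM sum moved the median of all genes to -0.56, -0.18 and -0.20.

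Aldh1a7, a cytosolic relative of Aldh1a1, rose at dpc16 in every zone. Zone 1 held 27.8, 62.1 and 68.5 FPKM at NP, 60.5, 91.3 and 150 at dpc8 and 702, 488 and 530 at dpc16. Zone 2 held 50.5, 60.9 and 66.2 at NP, 120, 69.1 and 171 at dpc8 and 698, 487 and 171 at dpc16. Zone 3 held 40.7, 40.2 and 67.4 at NP, 89.7, 78.3 and 115 at dpc8 and 486, 405 and 264 at dpc16. Every dpc16 library lay above every NP library, and the lowest dpc16 library was zone 2 replicate 3 (171.3), which stood apart and was just above the highest dpc8 library of that zone (170.7).

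Aldh1a7 rose from NP to dpc16 by 3.50 in zone 1 (SE 0.45, limma, adjusted p = 5.36e-05), by 2.70 in zone 2 (SE 0.45, adjusted p = 0.0012) and by 2.93 in zone 3 (SE 0.45, adjusted p = 0.000566). Without the 6 libraries these were 3.10, 3.29 and 3.06. The calls in zones 1 and 3 held in all 9 alternatives and in each fit that left out 1 library, and the call in zone 2 was lost with the compared groups alone (adjusted p from 6.03e-09 to 0.139 over the 9 alternatives). From dpc8 to dpc16 it rose by 2.58, 1.78 and 1.99 (SE 0.45, limma, adjusted p = 0.00275, 0.045 and 0.0215), and by 2.27, 2.02 and 2.24 without the 6 libraries. In zone 2 the latter call was lost without dpc16 replicate 1 (1.36) or 2 (1.62) or any dpc8 replicate (1.43 to 2.08), without the filter on low values and with the compared groups alone (adjusted p from 5.58e-05 to 0.554). In zone 3 it was lost without dpc16 replicate 1 (1.80) or 2 (1.93) or any dpc8 replicate (1.87 to 2.14).

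From NP to dpc8 Aldh1a7 differed by 0.92, 0.92 and 0.94 in the 3 zones (SE 0.45, limma, adjusted p of at least 0.971). The mean of the zones differed by 0.93 (SE 0.26, 95% interval 0.39 to 1.46, limma, adjusted p = 0.291). The mean was 0.97 with an adjusted p of 0.0103 without the 6 libraries. Over the 9 alternatives the adjusted p ran from 8.13e-05 with the connective tissue genes as a covariate to 0.867 with a replicate block. The comparisons of dpc8 and of dpc16 with NP share the NP libraries.

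The ratio of Aldh1a7 to Aldh1a1 within a library is free of the scaling between libraries. In zone 1 it was 0.287 to 0.4973 at NP, 0.5475 to 1.005 at dpc8 and 2.492 to 2.64 at dpc16. In zone 2 it was 0.185 to 0.2484 at NP, 0.3051 to 0.4887 at dpc8 and 1.243 to 1.668 at dpc16. In zone 3 it was 0.07998 to 0.1072 at NP, 0.1071 to 0.1421 at dpc8 and 0.5701 to 0.7405 at dpc16. Within each stage the ratios were lower from zone to zone without overlap, and within zones 1 and 2 they were higher from stage to stage without overlap. Aldh1a7 exceeded Aldh1a1 in all libraries of zones 1 and 2 at dpc16 and in no zone 3 library. At dpc8 it did so in 1 library, zone 1 replicate 1, which stood apart. Aldh1a1 itself was not called between stages in any zone, with differences of 0.75 (95% interval -0.23 to 1.72) in zone 1 and 0.16 (-0.81 to 1.13) in zone 3 from NP to dpc16.

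**Figure D4:**
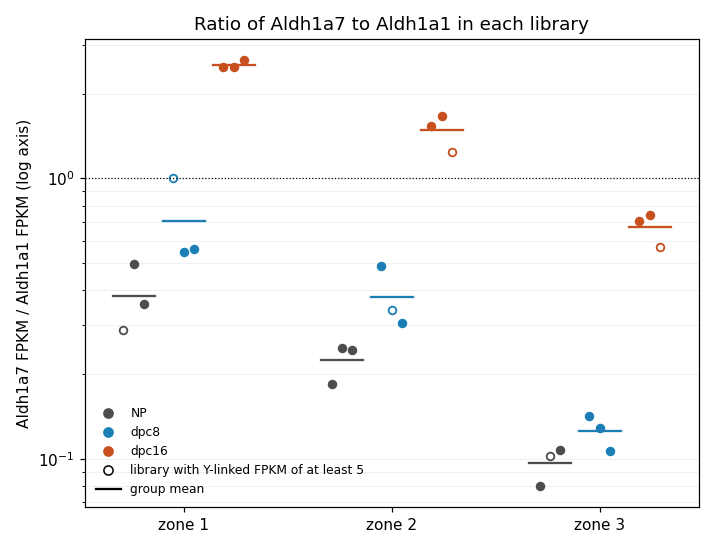
Ratio of Aldh1a7 FPKM to Aldh1a1 FPKM in each library (log axis), by zone and stage; lines are group means, open circles the 6 libraries with at least 5 FPKM of Y-linked genes, and the dotted line marks equal levels. Ratios at dpc16 run from 2.492 to 2.64 in zone 1 and from 0.5701 to 0.7405 in zone 3.

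Aldh1b1 rose in zone 1 from dpc8 to dpc16 by 1.84 (SE 0.45, limma, adjusted p = 0.0367), in the values given above without overlap. For this pair of groups the share of all genes without overlap is not given. In that comparison 2 of the 10 genes were called (Aldh1a7 and Aldh1b1) against 2.01% of all genes. Without the 6 libraries the rise was 1.33 with an adjusted p of 0.0307. The call was lost when any library but dpc8 zone 1 replicate 3 was left out (1.33 to 1.97), with the smaller pseudocount, without the filter, with either other scaling (1.13 and 1.62) and with the compared groups alone, and its adjusted p ran from 0.00885 to 0.136 over the 9 alternatives. From NP to dpc16 the zone 1 difference was 1.32 (SE 0.45, limma, adjusted p = 0.198), with each dpc16 library above each NP library. Groups without overlap were found for 17.4% of genes there. Within a library, the ratio of Aldh1b1 to Aldh2 in zone 1 was 0.1278 to 0.1794 at NP, 0.0837 to 0.1739 at dpc8 and 0.3382 to 0.5214 at dpc16. In zone 3 it did not exceed 0.001323 in any library.

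Aldh1l1, the cytosolic formyltetrahydrofolate dehydrogenase, was lower at dpc16. Zone 1 held 393, 521 and 783 FPKM at NP, 309, 525 and 712 at dpc8 and 282, 271 and 462 at dpc16. Zone 2 held 495, 408 and 314 at NP, 560, 293 and 624 at dpc8 and 226, 222 and 111 at dpc16. Zone 3 held 430, 231 and 493 at NP, 523, 452 and 550 at dpc8 and 168, 199 and 151 at dpc16. In zones 2 and 3 every dpc16 library lay below every NP and dpc8 library, while zone 1 overlapped. The share of all genes without overlap is not given for these comparisons, so how common such a separation is cannot be told. In the mean of the zones it fell by 0.99 from NP to dpc16 (SE 0.22, limma, adjusted p = 0.00369) and by 1.17 from dpc8 to dpc16 (SE 0.22, adjusted p = 0.000936), and without the 6 libraries the changes were -1.04 and -1.25. Those calls held in all 9 alternatives and without any single library.

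By zone, Aldh1l1 was called from dpc8 to dpc16 in zone 3, with a change of -1.56 (SE 0.38, limma, adjusted p = 0.037) and -1.46 without the 6 libraries. That zone 3 comparison called 2 of the 10 genes, Aldh1a7 and Aldh1l1, against 1.37% of all genes, and the zone 2 comparison called Aldh1a7 against 1.51%. The zone 3 call of Aldh1l1 was lost when any of the 6 libraries compared was left out (-1.66 to -1.46), and its adjusted p ran from 0.000169 to 0.0493 over the 9 alternatives. From NP to dpc16 the changes by zone were -0.72, -1.16 and -1.09 (SE 0.38, limma, adjusted p = 0.508, 0.104 and 0.192). Without the 6 libraries that stood apart they were -0.96, -0.83 and -1.33 (adjusted p = 0.0417, 0.0628 and 0.00927).

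Adh4 fell by 0.77 from NP to dpc16 in the mean of the zones (SE 0.24, limma, adjusted p = 0.0384), so that 3 of the 10 genes were called (Aldh1a7, Aldh1l1 and Adh4) against 11.8% of all genes. From dpc8 to dpc16, 2 of the 10 were called in the mean of the zones against 11.1%. The call of Adh4 was lost with no filter (limma, adjusted p = 0.0538), with the compared groups alone (adjusted p = 0.0642) and with a replicate block (adjusted p = 0.0863). Over the 9 alternatives its adjusted p ran from 0.000189 to 0.0863. Without the 6 libraries the change was -0.79 with an adjusted p of 0.00175. Leaving out any 1 of 13 of the 18 libraries also lost the call of Adh4, with changes from -0.98 to -0.62 over the 18 fits. The 5 that could be left out were replicate 1 of each NP zone and dpc16 zone 2 replicates 1 and 2. In the mean of the zones Aldh1a7 rose by 3.04 from NP and by 2.12 from dpc8 to dpc16 (SE 0.26, limma, adjusted p = 3.51e-08 and 8.48e-06), or by 3.15 and 2.18 when the 6 libraries were left out. By zone the change of Adh4 from NP had a 95% interval of -0.91 to 0.80 in zone 1, and was -1.37 in zone 2 (adjusted p = 0.0803) and -0.88 in zone 3 (adjusted p = 0.417, limma).

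No stage difference was called for Adh1, Adh5, Aldh2, Aldh1a1, Aldh3a2 or Aldh8a1 in any zone or in the mean of the zones. Aldh2 differed by -0.93 from NP to dpc16 in zone 2 (SE 0.31, limma, adjusted p = 0.116) and by -0.51 in the mean of the zones (SE 0.18, adjusted p = 0.0703), and by -0.37 with an adjusted p of 0.00867 in the latter without the 6 libraries. Aldh3a2 differed by 0.84 from NP to dpc16 in zone 1, where the groups did not overlap (SE 0.43, limma, adjusted p = 0.488), as they did not for 17.4% of all genes. In zone 2 the 95% interval of the change from NP to dpc16 was -1.03 to 0.29 for Adh5 and -1.39 to 0.35 for Aldh8a1. For Aldh8a1 that interval rests on 1 library, since without dpc16 zone 2 replicate 3 the difference turned from -0.52 to 0.071.

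The change from NP was also compared between zones 1 and 3. None of the 10 genes was called at dpc8 or dpc16 (limma), where 0 and 7 of 12952 genes were called (0% and 0.054%), and with an unadjusted p under 0.05 there were 1 and 0 of the 10, against 2.36% and 3.16% of all genes. For Aldh1a7 at dpc16 the change in zone 1 exceeded that in zone 3 by 0.56 (95% interval -0.75 to 1.88). For Aldh1b1 the difference of changes was -1.55 at dpc8 (95% interval -2.87 to -0.22), the 1 gene of the 10 at that unadjusted p. At dpc16 its difference of changes had the opposite sign, as zone 1 exceeded zone 3 by 8.17 against 7.00 at NP, with an adjusted p of 0.993 (limma).

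**Figure D5:**
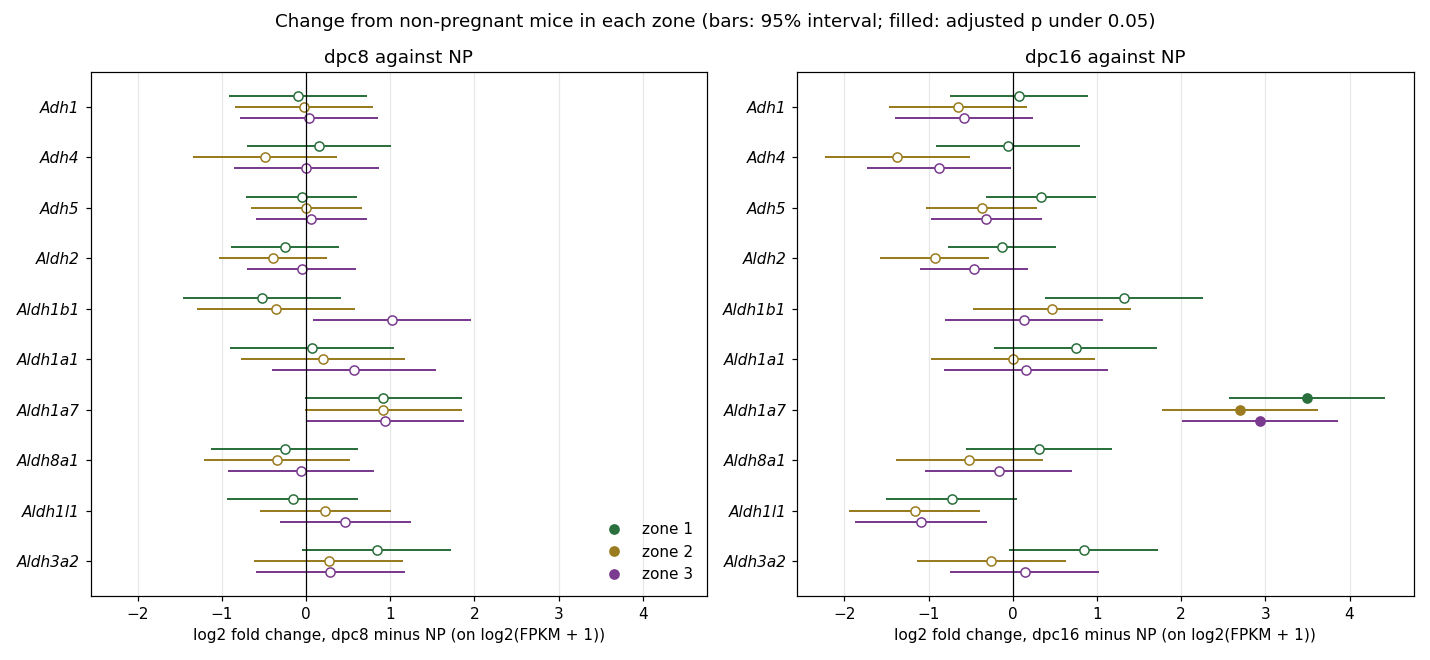
Log2 fold change from NP to dpc8 (left) and to dpc16 (right) on log2(FPKM + 1), for the 10 genes in zones 1, 2 and 3, with 95% intervals from limma; filled points have an adjusted p under 0.05. Aldh1a7 at dpc16 (3.50, 2.70 and 2.93) carries the filled points.

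The 9 groups were ordered by mean level and each was compared with the next. Of 8 neighbouring pairs, 3 did not overlap for Aldh1b1, 2 for Aldh1a7, 1 each for Aldh1l1, Aldh2 and Aldh3a2, and 0 for the other 5 genes, which is 8 of 80 pairs, against 1.61% of such pairs over all genes tested. For Aldh1a7 the breaks lay below dpc16 zone 3 (mean 385 ± 112 SD, n = 3) and below dpc8 zone 3 (94.4 ± 18.8). The latter does not part all dpc8 from all NP libraries. Dpc8 zone 1 replicate 1 (60.5) lay below the highest library of each NP zone (66.2 to 68.5). For Aldh1b1 they lay below dpc16 zone 1 (413 ± 132), below dpc8 zone 2 (36.2 ± 9.84) and below dpc8 zone 3 (1.69 ± 0.945). For Aldh2 the break lay below the zone 3 groups of NP (2142 ± 354) and dpc8 (2048 ± 74.8), for Aldh1l1 it lay below dpc16 zone 1 (339 ± 107), and for Aldh3a2 it set NP zone 1 (57.8 ± 15.3) apart from the rest.

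The genes with the most similar pattern were taken by Pearson's r over the 9 group means of log2(FPKM + 1), among genes with an SD of group means of at least 0.5; the points share libraries, and r is a description. Aldh1b1 was most like Sdsl (0.996) and Tent5c (0.981), Aldh1a7 like Nlrp12 (0.987), and Aldh1l1 like Khk (0.985) and Gnmt (0.967). Adh4 was most like Nxpe2 (0.985) and Csad (0.979), Aldh2 like Sntb1 (0.974), and Aldh1a1 like Gulo (0.962) and Wnt2 (0.948). Aldh3a2 was most like Tdrp (0.96) and Cyp4a14 (0.958), Adh1 like Tmem243 (0.955) and Fdx1 (0.95), and Adh5 like Cd59b (0.906) and Mbl1 (0.881). Aldh8a1 had the lowest values, with Arap3 (0.755) and Mrpl47 (0.729).

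Among 18 other Adh and Aldh genes, 13 could be tested. None was called between zones 1 and 3 or from NP to dpc16 within a zone (limma), with 3, 3 and 1 genes at an unadjusted p under 0.05 between zones, against 8.02%, 12.2% and 7.86% of all genes, and 0, 3 and 1 between stages, against 11%, 16.6% and 11.5%. In the mean of the zones 1 of the 13 was called from NP to dpc16, Aldh4a1, an enzyme of proline breakdown, with a change of -0.81 (SE 0.18, adjusted p = 0.00497), where 11.8% of all genes were called. That call was kept under all 9 alternatives and in the 18 fits without 1 library (-0.91 to -0.74). Of the genes in the same retinaldehyde dehydrogenase group, Aldh1a2 had group means of 0.0181 to 0.787 FPKM and Aldh1a3 of 0.214 to 1.28 FPKM, below every library of Aldh1a1 and Aldh1a7 on the same scale per length; these 2 genes were named after their values were seen.

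Among 16 other enzymes of ethanol and aldehyde turnover, 15 were tested, and 0 were higher and 2, 1 and 3 lower in zone 1 than in zone 3 at NP, dpc8 and dpc16, where 1.34%, 1.61% and 1.55% of all genes were called. Cyp2e1, the cytochrome that oxidises ethanol in the endoplasmic reticulum, was lower in zone 1, with differences of -5.30, -5.98 and -6.33 (limma, adjusted p = 1.95e-08, 5.47e-09 and 9.52e-10). Its group means were 244 FPKM in NP zone 1 and 9856 in NP zone 3, against 2138 for Adh1 and 2142 for Aldh2 in NP zone 3. The other call at NP, Akr1a1, an aldehyde reductase (-0.83, limma, adjusted p = 0.046), was lost with the FPKM sum, with quantile normalization, with the compared groups alone, without the 6 libraries (-0.74, adjusted p = 0.0803) and without any 1 library but zone 1 replicate 3 (-0.90 to -0.67). At dpc16 the other calls were Aox1 (-2.45) and Aox3 (-3.36), and that of Aox3 was lost with the compared groups alone (limma, adjusted p = 0.0549). Of the same 15, 0 were higher and 2, 2 and 0 lower at dpc16 than at NP in zones 1, 2 and 3, where 1.37%, 2.66% and 1.32% of all genes were called, and 1 was higher and 6 lower in the mean of the zones (11.8% of all genes). The higher one, Esd (0.60), was lost with the FPKM sum (0.21, limma, adjusted p = 0.492). Aox3, an aldehyde oxidase, changed by -3.79 in zone 1 (limma, adjusted p = 5.05e-05) and -3.06 in zone 2 (adjusted p = 0.000798), with group means of 40.6 and 92.3 FPKM at NP and 2.11 and 10.4 at dpc16. The zone 2 call was lost with the compared groups alone (adjusted p = 0.0706). Of the other calls in these zones, that of Aox1 in zone 1 (-1.82) was lost with quantile normalization, with the compared groups alone and without any 1 library but NP replicate 3 (-1.98 to -1.58). That of Cyp2e1 in zone 2 (-1.61) was lost with the compared groups alone, without the 6 libraries (-1.28, limma, adjusted p = 0.0529) and without any 1 library but dpc16 replicate 1 (-1.78 to -1.28).

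All 29 retinoid genes listed were tested, and 0 were higher and 1, 2 and 2 lower in zone 1 than in zone 3 at NP, dpc8 and dpc16 (1.34%, 1.61% and 1.55% of all genes called). Rdh9, a retinol dehydrogenase of the short-chain family, was lower in zone 1, with differences of -5.62, -6.01 and -4.29 (limma, adjusted p = 6.9e-07, 2.65e-07 and 2.47e-05), with NP group means of 1.84 FPKM in zone 1 and 143 in zone 3. The other call at dpc8, Rdh16 (-1.95, limma, adjusted p = 0.0415), was lost with no filter, with quantile normalization, with the covariate and without any 1 of the 6 libraries compared (-2.03 to -1.91). At dpc16 the other was Cyp26a1, which breaks down retinoic acid (-3.13, limma, adjusted p = 0.0161), and it was lost without zone 1 replicate 2 or 3 or zone 3 replicate 1 or 2 (-3.16 to -2.91). From NP to dpc16, 2, 0 and 1 retinoid genes rose and 0, 5 and 3 fell in zones 1, 2 and 3 (1.37%, 2.66% and 1.32% of all genes called), and 2 rose and 9 fell in the mean of the zones (11.8%). Bco1, which cleaves beta-carotene to retinaldehyde, rose by 1.92 in zone 1 (adjusted p = 0.007) and 1.89 in zone 3 (adjusted p = 0.00752). Lrat, which esterifies retinol for storage, changed by -2.16 in zone 3 (limma, adjusted p = 0.00116). All 5 calls of retinoid genes in zone 2, and those of Bco1, Dhrs7 and Ttr in zone 3 and of Rdh9 in zone 1, were lost with the compared groups alone. The zone 1 call of Rdh9 (2.28, adjusted p = 0.0368) was also lost with no filter (adjusted p = 0.0566) and without any 1 of 5 of the 6 libraries compared, all but dpc16 replicate 3 (1.78 to 2.54). In zone 3 the call of Bco1 was lost without NP replicate 2 (1.63) or dpc16 replicate 1 (1.77) or 2 (1.69), that of Dhrs7 without any 1 of 4 of the 6 libraries (NP replicates 1 and 3, dpc16 replicates 1 and 2; -1.61 to -1.41) and that of Ttr without any 1 of the 6 (-1.63 to -1.36) and with no filter. In zone 2 the call of Dhrs3 was lost without NP replicate 2 or 3 or dpc16 replicate 2 or 3 (-1.92 to -1.71), that of Lrat without NP replicate 3 (-1.56) or dpc16 replicate 3 (-1.31) and with quantile normalization, and that of Bco2 without NP replicate 3 (-1.65). The calls of Bco1 in zone 1 and Lrat in zone 3 were kept under all 9 alternatives and without any 1 library. In the mean of the zones 2 of the 11 calls were lost under an alternative, Rdh10 (-0.51) with quantile normalization, the replicate block and in 10 of 18 fits without 1 library, and Cyp26b1 (-1.22) with the compared groups alone and the replicate block.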

How the data were processed

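RNA-seq libraries of 9 groups (3 stages by 3 zones, 3 libraries each) were analysed, and groups and replicate numbers came from the sample titles. According to the study's methods and the submitters' processing notes, reads were trimmed with cutadapt and mapped to mm10 with HISAT2 2.1.0. Cuffdiff (Cufflinks 2.2.1) then gave gene levels from the uniquely mapped reads over protein-coding genes. As deposited, these levels are FPKM, which the authors normalized for transcript length and mapped fragments, and no counts were used.

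Genes with at least 1 FPKM in at least 3 libraries were kept. limma 3.58.1 (R 4.3.3, trend and robust) was fitted to log2(FPKM + 1) with 9 group means over all 27 libraries, 23 comparisons were made, and p-values were adjusted by Benjamini-Hochberg over all 12952 genes within each comparison, with a threshold of 0.05. The genes named were the 10 members, the 2 genes most like each over group means (for Aldh1a7 and Aldh2 only 1 is reported here), and list genes past the threshold in zone 1 against zone 3 or dpc16 against NP, or named for the levels of a list. The members and gene lists were chosen with earlier results of these data known. Data were also simulated for dpc16 against NP in zone 1 over 12952 genes. There the fit called 74 of 102 genes with a log2 change of 2 and 19 of 98 with a change of 1. The fit also called 3 of 12752 unchanged genes. Whether these counts hold for the measured libraries was not tested.

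The alternatives were a pseudocount of 0.1, no filter, scaling to the library's FPKM sum, quantile normalization, the compared groups alone, array weights, the mean of the connective tissue genes as a covariate, leaving out the 6 libraries with at least 5 FPKM of Y-linked genes, a replicate block, and leaving out each library in turn. Libraries with the same number deviated together at dpc16, where 9 of 9 correlations between zones exceeded 0.1 (0.263 to 0.863). The numbers were therefore taken to pair the zones at that stage, which the labels do not state. These correlations are not independent, since deviations within a group of 3 libraries sum to 0. The highest, 0.863, was between replicate 3 of zone 2 and of zone 3, which both stood apart. Positions and coding sequences came from GENCODE on mm10 and upstream sequences from RefSeq on GRCm38.p6, which held an entry for 9 of the 10 genes. Sequences were compared with Biopython 1.88 under Python 3.11.15.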

Additional observations from a re-analysis of the deposited data

How the results depend on the processing

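Values of Aldh1b1 in zone 3 rested on an estimated 2.02 to 96.1 reads, and each group had 3 libraries. Of 27 called results of the 10 genes, all 27 kept direction and call with array weights, with the connective tissue covariate and after removal of the libraries with Y-linked FPKM, 26 with scaling to the FPKM sum, quantile normalization and the replicate block, 25 with a pseudocount of 0.1, 23 with no filter and 17 with the compared groups alone. Leaving out 1 library kept 172 of 222, and none reversed. The causes of these changes were not tested. Replicate numbers were not taken to pair the zones at NP or dpc8, where 4 of 9 and 5 of 9 correlations exceeded 0.1.

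The number of the 10 genes called, 4, 4 and 2 in zone 1 against zone 3 at NP, dpc8 and dpc16, was 2 with the compared groups alone and 3 with no filter at NP, and 3 with the compared groups alone at dpc8. At all 3 stages it was 5 with scaling to the FPKM sum, with array weights, with the covariate and without the Y-linked libraries. With quantile normalization it was 4, 5 and 3, and with the replicate block 4, 5 and 4. In zone 1 against zone 2 at NP it went from 0 to 3 with the FPKM sum, 1 with quantile normalization or the covariate, and 2 with weights, without the Y-linked libraries or with the replicate block. At dpc8 it went from 0 to 1 with weights, the covariate, without the Y-linked libraries and with the replicate block, and at dpc16 from 1 to 0 with the pseudocount of 0.1 and with the compared groups alone. In zone 2 against zone 3 it went from 1 to 2 with the covariate at NP, and at dpc16 to 2 with the FPKM sum, the covariate or the replicate block, 3 with weights and 0 with the compared groups alone.

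From NP to dpc8 the count went from 0 to 1 with the covariate in zones 1 and 2, and in the mean of the zones to 1 with the FPKM sum, weights, the covariate and without the Y-linked libraries. From NP to dpc16 it went from 1 in zone 1 to 3 with the FPKM sum and 2 without the Y-linked libraries. In zone 2 it went to 5 with the FPKM sum, 3 with quantile normalization, 0 with the compared groups alone, 4 with weights or the covariate and 2 without the Y-linked libraries. In zone 3 it went to 3 with the FPKM sum and 2 with weights, the covariate or without the Y-linked libraries, and in the mean of the zones from 3 to 7, 5, 6, 4 and 6 with the FPKM sum, quantile normalization, weights, the covariate and without the Y-linked libraries, and to 2 with no filter, the compared groups alone or the replicate block. From dpc8 to dpc16 it went from 2 in zone 1 to 1 with the pseudocount of 0.1, no filter, quantile normalization and the compared groups alone and to 3 without the Y-linked libraries, and from 2 in zone 3 to 3 with weights. In zone 2 it went from 1 to 0 with no filter and with the compared groups alone, to 5 with the FPKM sum, 2 with quantile normalization and 3 with weights, the covariate or without the Y-linked libraries. In the mean of the zones it went from 2 to 7 with the FPKM sum, 3 with the compared groups alone and 4 with quantile normalization, weights, the covariate or without the Y-linked libraries. The share of all genes called moved with these settings: with the FPKM sum it was 23.8% and 26.8% in the means of NP and dpc8 against dpc16, in place of 11.8% and 11.1%, with quantile normalization 10.5% and 9.71%, with weights 22.4% and 27.2%, with the covariate 19.9% and 18.9%, without the Y-linked libraries 17.9% and 19.7%, with no filter 8.62% and 7.8%, with the compared groups alone 9.2% and 10.5%, and with the replicate block 6.8% and 6.18%. In zone 1 against zone 3 over the 9 alternatives it ran from 0.54% to 2.21% at NP, 1.2% to 6.6% at dpc8 and 1.15% to 3.83% at dpc16, and from NP to dpc16 from 0.456% to 5.15%, 0.131% to 8.5% and 0.309% to 5.99% in zones 1, 2 and 3. From dpc8 to dpc16 it ran from 0.911% to 10.9%, 0% to 7.67% and 1% to 12.1%, from NP to dpc8 it stayed between 0% and 0.556%, and between neighbouring zones between 0% and 2.15%.

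Leaving out 1 library gave counts of 3 to 4, 2 to 4 and 1 to 2 for zone 1 against zone 3 at NP, dpc8 and dpc16, 0 to 1, 0 and 0 to 1 for zone 1 against zone 2, and 1 throughout for zone 2 against zone 3. It gave 1 in each zone and 2 to 4 in the mean from NP to dpc16, and 1 to 2, 0 to 1, 0 to 1 and 2 to 3 in zones 1, 2, 3 and the mean from dpc8 to dpc16.

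Among uncalled differences larger than their SE, these changed sign under an alternative; smaller differences were not followed. Without the Y-linked libraries, and without dpc16 zone 2 replicate 3 alone, Aldh1a7 and Aldh8a1 in zone 1 against zone 2 at dpc16 were -0.043 and -0.046, and Aldh8a1 from NP to dpc16 in zone 2 was 0.071. The other end of the range over single left-out libraries was 0.97, 0.92 and -0.90 for these results. Aldh3a2 from dpc8 to dpc16 in zone 2 was 0.016 without that library, the other end being -1.01, and the change of Adh4 in zone 1 minus zone 3 at dpc16 was -0.041 without the Y-linked libraries. Scaling to the FPKM sum moved the median of all genes in zone 1 from -0.049 to -0.56 from NP to dpc16 and from -0.054 to -0.64 from dpc8 to dpc16, and in the mean of the zones to -0.31 from NP and -0.36 from dpc8 to dpc16. With this shift, Adh5 in zone 1 was -0.28 from NP and -0.32 from dpc8 to dpc16, Aldh1a1 and Aldh8a1 from dpc8 to dpc16 in zone 1 were -0.033 and -0.14, and Aldh1a1 from NP to dpc16 in the mean of the zones was -0.088.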
